A study of Caenorhabditis elegans with 6 samples.

Results

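Basic helix-loop-helix (bHLH) transcription factors were examined in 2 kinds of RNA from Caenorhabditis elegans, that of PVD and OLL neurons and that of the whole animal. The genes were those named hlh or mxl with a number, together with ngn-1, cnd-1, hnd-1, lin-22, ref-1, hif-1, sbp-1, mdl-1, aha-1 and cky-1. These names gave 38 genes, of which 31 had a probe set assigned to them alone, among 17118 such genes on the array. A probe set is a group of short probes meant to report 1 transcript, though some can match several. PVD is a highly branched nociceptor that covers the body wall, while OLL lies in the head and is also sensory.

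For the neuronal group, poly(A) RNA was obtained with mRNA tagging. A poly(A) binding protein, PAB-1, carrying 3X FLAG was made from the ser-2prom3B promoter and was pulled down with its bound transcripts, so the group rests on where that promoter is active. The reference group was total RNA of the whole animal. Both came from L3/L4 larvae grown at 25 °C, both were amplified with the same kit, and each was hybridised on 3 Affymetrix arrays. No strain is named in the labels. Cell type and kind of RNA changed together between the groups and cannot be told apart, nor can fewer cells of a type and less RNA per cell.

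A bHLH protein binds DNA as a dimer. The helix-loop-helix part joins it to its partner, and the basic part of each partner reads one side of a short E-box motif. In neural development, proneural members pair with a broadly made E protein and start neuron formation, mostly for a short time in precursor cells. Other members work in differentiated cells, where they control lipid use, lysosomes, oxygen responses and growth. PVD is born from the postdeirid branch of a seam cell lineage, which needs the atonal-related gene lin-32 and is limited to its place by the Hairy-related gene lin-22.

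Of the 31 genes, 2 rose in the PVD and OLL samples, mdl-1 and hlh-30, and 1 fell, hlh-8. A change was called at an adjusted p under 0.05 with limma over all probe sets. Among all genes 8.1% were called higher and 4.66% lower, or 12.8% in either direction. The bHLH shares of 6.45% and 3.23% rest on 2 and 1 of 31 genes and are near these. Counted over the 22548 probe sets, the shares were 9.31% higher, 4.28% lower and 13.6% in either direction. The median log2 difference (PVD and OLL minus whole animal) was 0.02 over the bHLH genes and -0.07 over all genes. No array of 1 group reached those of the other for 6 genes that were higher and 4 that were lower. That is 19.4% and 12.9% of them, against 18.4% and 21.9% of all genes. Of 60 homeobox genes named ceh with a number, 5 were called higher and 0 lower, and of 254 nuclear hormone receptor genes named nhr with a number, 38 were higher and 3 lower.

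Signals are deposited values on a log2 scale, and 32 control probe sets with no target in worm RNA served to set a background level for every array. This level ran from 2.28 to 2.44 for PVD and OLL and from 2.95 to 3.43 for the whole animal. It was exceeded by 16, 19 and 15 of the 31 genes on PVD and OLL replicates 1, 2 and 3, and by 12, 12 and 13 on the whole animal replicates. These are 48.4% to 61.3% and 38.7% to 41.9% of them, while of all genes 71.5% to 75.8% exceeded it on a PVD and OLL array and 53.4% to 65.1% on a whole animal array. For 9 genes no array exceeded it. Among the 14 bHLH genes above background on all arrays of at least 1 group, 2 were called higher and 1 lower, against 12% and 5% of the 11532 genes so detected. The controls themselves were lower in the neuronal samples, with a median difference of -0.50, so small differences of dim genes stand beside a shift of the background. Replicate 3 of each group correlated less with the other replicates than those did with each other.

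**Figure D1:**
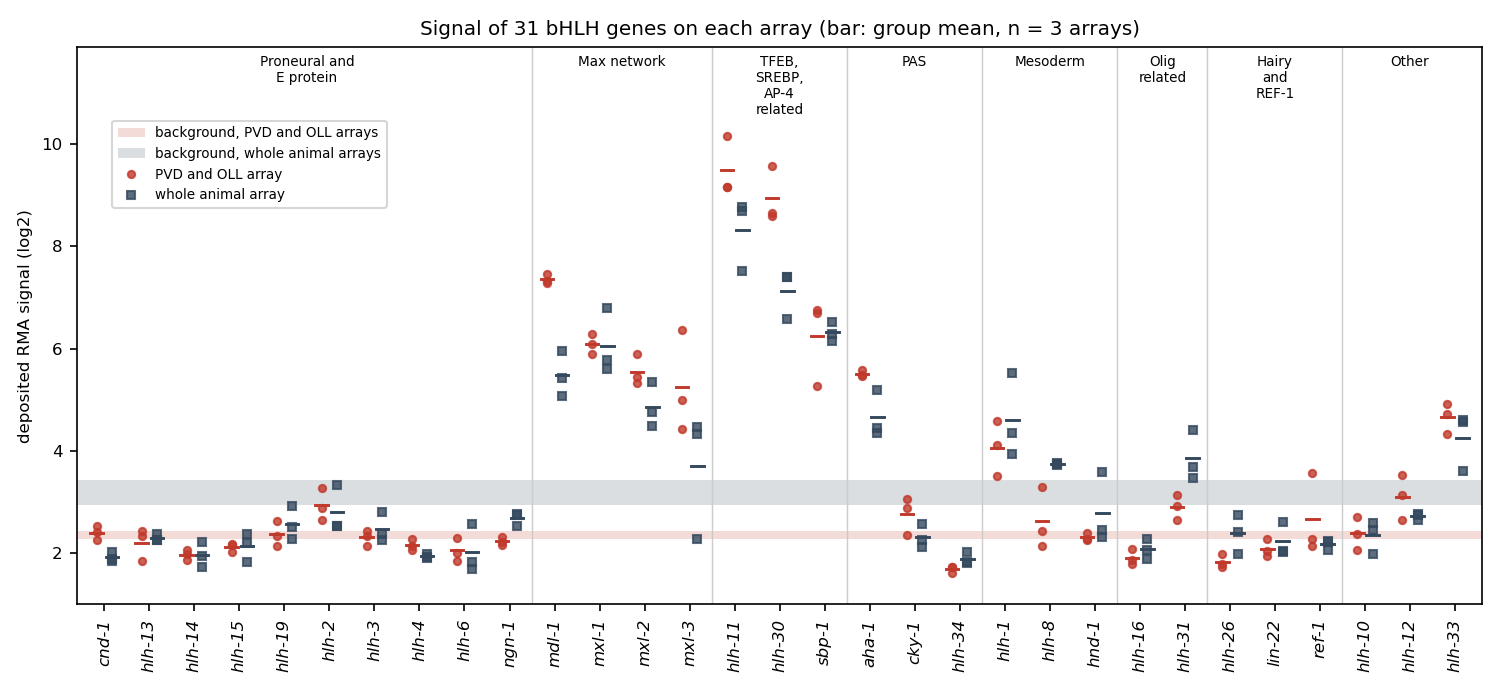
Deposited log2 signal (vertical axis) of each of the 31 bHLH genes on the 3 PVD and OLL arrays (circles) and the 3 whole animal arrays (squares), with group means as bars and the range of the background level as bands. The proneural genes lie at or near background in both groups, while mdl-1, hlh-30, hlh-11 and aha-1 lie above it and are higher on every PVD and OLL array.

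The Max network held the largest rise. Its proteins pair with the Max-like factors MXL-1, MXL-2 and MXL-3, and MDL-1 is the Mad-like partner of MXL-1, known as a repressor that opposes Myc-type activation in mammals. mdl-1 had signals of 7.32, 7.28 and 7.47 in PVD and OLL and 5.43, 5.96 and 5.07 in the whole animal. The groups were far apart, and the PVD and OLL values were close to each other. The difference was 1.87 ± 0.26 (log2 ± SE, 3 arrays in each group, adjusted p = 0.00702) or 3.65-fold. It was called in 6 of 6 runs with 1 array left out. mdl-1 has a single probe set, of a type that can match several transcripts.

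The 3 partners of the network did not pass the test. mxl-1 had signals of 6.09, 6.28 and 5.89 in PVD and OLL and 5.77, 5.61 and 6.79 in the whole animal, and the groups overlapped. Its difference was 0.03 with a 95% interval from -0.74 to 0.80. mxl-2, the partner of the Mondo-like protein MML-1, had means of 5.55 and 4.86 (adjusted p = 0.14). mxl-3, known for repressing lipase genes in fed worms, had signals of 4.42, 5.0 and 6.36 against 4.47, 4.34 and 2.28. In both groups replicate 3 stood apart, in opposite directions, and the mean difference of 1.57 (adjusted p = 0.161) dropped to 0.31 without replicate 3 of both groups.

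mml-1 itself, the Myc and Mondo-like activator, carries another name pattern and is outside the 31. Its probe set with the higher mean had 5.95, 6.25 and 6.18 in PVD and OLL and 4.22, 4.5 and 2.93 in the whole animal. It rose by 2.24 ± 0.40 (adjusted p = 0.0136), and the adjusted p was 0.0621 when PVD and OLL replicate 2 was dropped. The other probe set did not show this: it had means of 4.36 and 4.11, a difference of 0.25 (adjusted p = 0.527), and its arrays overlapped.

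hlh-30 was the other gene that rose. It encodes the worm TFEB, an activator of autophagy and lysosome genes. Its signals were 8.60, 8.66 and 9.57 in PVD and OLL and 7.40, 7.41 and 6.58 in the whole animal, with no overlap. The difference was 1.82 ± 0.35 (adjusted p = 0.0176), a 3.52-fold difference, but hlh-30 missed the threshold when PVD and OLL replicate 2 was dropped (adjusted p = 0.0546). Without replicate 3 of both groups the difference was smaller, at 1.23, and still called (adjusted p = 0.00904). All 3 probe sets of hlh-30 were called. The others rose by 1.62 ± 0.35 (adjusted p = 0.0252) and 1.2 ± 0.21 (adjusted p = 0.0139). Dropping 1 array at a time ended the first of these calls in 4 of 6 fits (adjusted p up to 0.0796) and the second in 1 (0.0658).

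Leucine zipper bHLH factors related to hlh-30 by structure gave mixed values. hlh-11, related to vertebrate AP-4, had signals of 9.16, 9.17 and 10.15 in PVD and OLL and 8.78, 8.70 and 7.51 in the whole animal with its brightest probe set. These arrays did not overlap, but the difference of 1.16 ± 0.42 was not called (adjusted p = 0.105), and without replicate 3 of both groups it was 0.42. Both other probe sets of hlh-11 rose, by 1.85 ± 0.35 (adjusted p = 0.017) and 1.51 ± 0.28 (adjusted p = 0.0155), with calls that ended in 1 and 2 of the 6 fits that drop 1 array (adjusted p up to 0.0537 and 0.0696), and with all 3 averaged the gene was called at 1.51 (adjusted p = 0.0218). The use of the brightest probe set therefore kept hlh-11 out of the count of genes that rose. However, both called probe sets are of types that can match several transcripts, while the brightest is not. With such types dropped, hlh-11 was not called (1.16, adjusted p = 0.11).

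sbp-1 encodes the worm SREBP, which drives fat synthesis genes. It had signals of 6.69, 6.75 and 5.28 in PVD and OLL and 6.53, 6.29 and 6.15 in the whole animal. PVD and OLL replicate 3 was the lowest of the 6 and the other 2 were the highest. The difference was -0.08 (adjusted p = 0.9), with a 95% interval from -1.0 to 0.84.

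**Figure D2:**
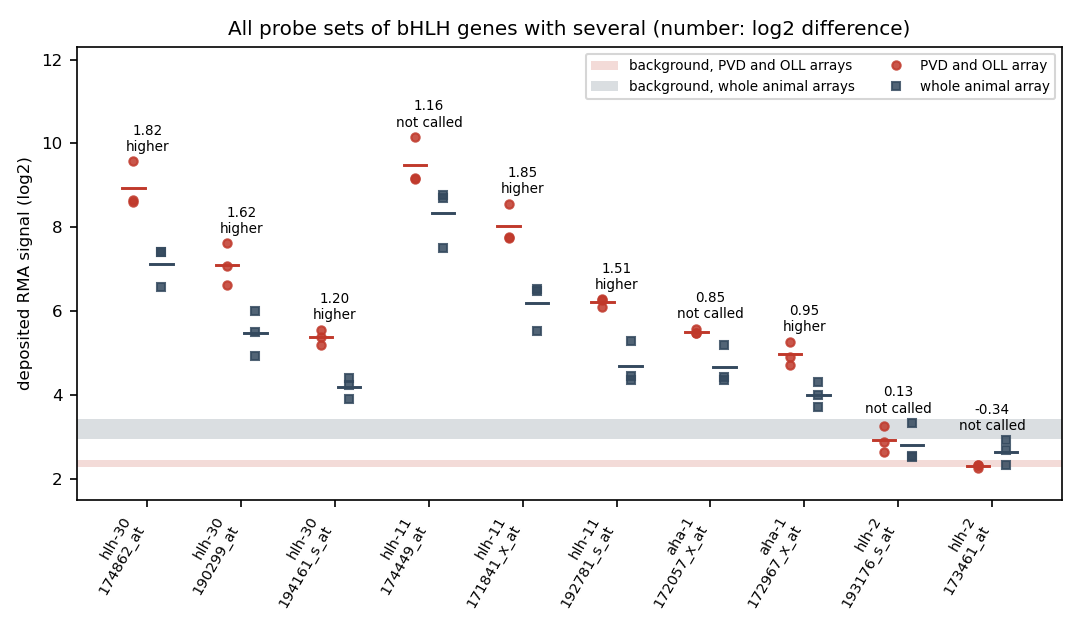
Deposited log2 signal (vertical axis) on each array for every probe set of the 4 bHLH genes with more than 1, with the log2 difference and the call above each. Of hlh-30 all 3 probe sets were called higher, of hlh-11 2 of 3 and of aha-1 1 of 2, the brightest probe set of the latter genes being the one not called.

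PAS factors are bHLH proteins with an added PAS domain, and AHA-1 is the ARNT-like partner they share. aha-1 had signals of 5.58, 5.49 and 5.47 in PVD and OLL and 4.44, 5.2 and 4.35 in the whole animal. The groups did not overlap, with a difference of 0.85 ± 0.26 that was not called (adjusted p = 0.0696). The other aha-1 probe set rose by 0.95 ± 0.24 (adjusted p = 0.0406), but none of the 6 fits that each drop 1 array called it (adjusted p up to 0.123). The brighter probe set was called without whole animal replicate 2 (1.12, adjusted p = 0.0322). Both aha-1 probe sets are of a type that can match several transcripts.

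Partners of AHA-1 differed from each other in detection. hif-1, the oxygen-regulated factor, is listed for its probe set under a pair of gene entries of the same name, 1 of which is not in the RefSeq gene table used here, so it was kept out of the 31. That probe set had 8.33, 8.16 and 8.31 in PVD and OLL and 7.71, 7.21 and 5.60 in the whole animal. The groups did not overlap, and the difference of 1.43 ± 0.49 was not called (adjusted p = 0.095). Without whole animal replicate 3 it was 0.81 (adjusted p = 0.058).

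ahr-1, the aryl hydrocarbon receptor gene, which acts in the choice between unbranched touch neurons and branched nociceptors, lies outside the 31 by its name. It had 3.73, 4.02 and 3.86 in PVD and OLL, all above background, and 1.95, 2.48 and 2.43 in the whole animal, all below. The difference was 1.58 ± 0.22 (adjusted p = 0.00718), and ahr-1 was called in 6 of 6 runs with 1 array left out. Taken against the background level of the whole animal arrays, the rise was at least 1.64-fold. cky-1 had means of 2.77 and 2.32 (adjusted p = 0.253) and exceeded background on 2 PVD and OLL arrays. hlh-34 lay below background on all 6 arrays. Of the 3 PAS genes among the 31, limma called 0, with 1 at an unadjusted p under 0.05.

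Proneural genes and their E protein were not detected as higher. Of 10 such genes limma called 0 in either direction, with 2 at an unadjusted p under 0.05, and their log2 differences ran from -0.44 to 0.48. On all 3 arrays of a group, only hlh-2 exceeded background, in PVD and OLL. hlh-2 encodes the E protein that proneural factors pair with. Its signals were 2.89, 3.27 and 2.64 in PVD and OLL and 2.53, 2.54 and 3.33 in the whole animal, and the groups overlapped (difference 0.13, 95% interval from -0.54 to 0.81). The other hlh-2 probe set differed by -0.34 (adjusted p = 0.307).

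The achaete-scute-like genes were read at background. hlh-3, which acts in the HSN motor neuron, had 2.15, 2.44 and 2.34 against 2.80, 2.26 and 2.38. hlh-4, a factor of the ADL neuron, had 2.15, 2.07 and 2.27 against 1.98, 1.93 and 1.90, with no overlap but no value above background. hlh-14, needed in several neuron lineages, had 1.98, 1.86 and 2.07 against 1.95, 1.74 and 2.22. The pharyngeal gland factor gene hlh-6 had 2.01, 1.85 and 2.30 against 1.69, 1.82 and 2.57. Only hlh-3 of these 4 exceeded background on any array, namely PVD and OLL replicate 2. No fold is given for genes at background in both groups.

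The neurogenin and NeuroD genes were at or near background and were not called. cnd-1, related to NeuroD, had 2.54, 2.25 and 2.41 in PVD and OLL and 1.89, 1.84 and 2.02 in the whole animal. These did not overlap (difference 0.48 ± 0.19, adjusted p = 0.121), and 1 of the 6 values exceeded background. ngn-1, the neurogenin gene, had 2.17, 2.22 and 2.32 against 2.76, 2.74 and 2.54, with no value above background (adjusted p = 0.14). Its arrays did not overlap, and the no-target controls were also lower in PVD and OLL, by the -0.50 given above. hlh-13, hlh-15 and hlh-19 had differences of -0.08, -0.01 and -0.20, and hlh-13 and hlh-19 exceeded background on 1 array each.

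lin-32, the atonal-related gene of the postdeirid lineage, is outside the 31 by its name. It had 2.08, 2.13 and 2.15 in PVD and OLL and 2.71, 2.86 and 2.62 in the whole animal. All 6 values lay below background. The groups did not overlap and lin-32 was not called (adjusted p = 0.0638), and the no-target controls, with a median difference of -0.50, were lower in the same samples.

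**Figure D3:**
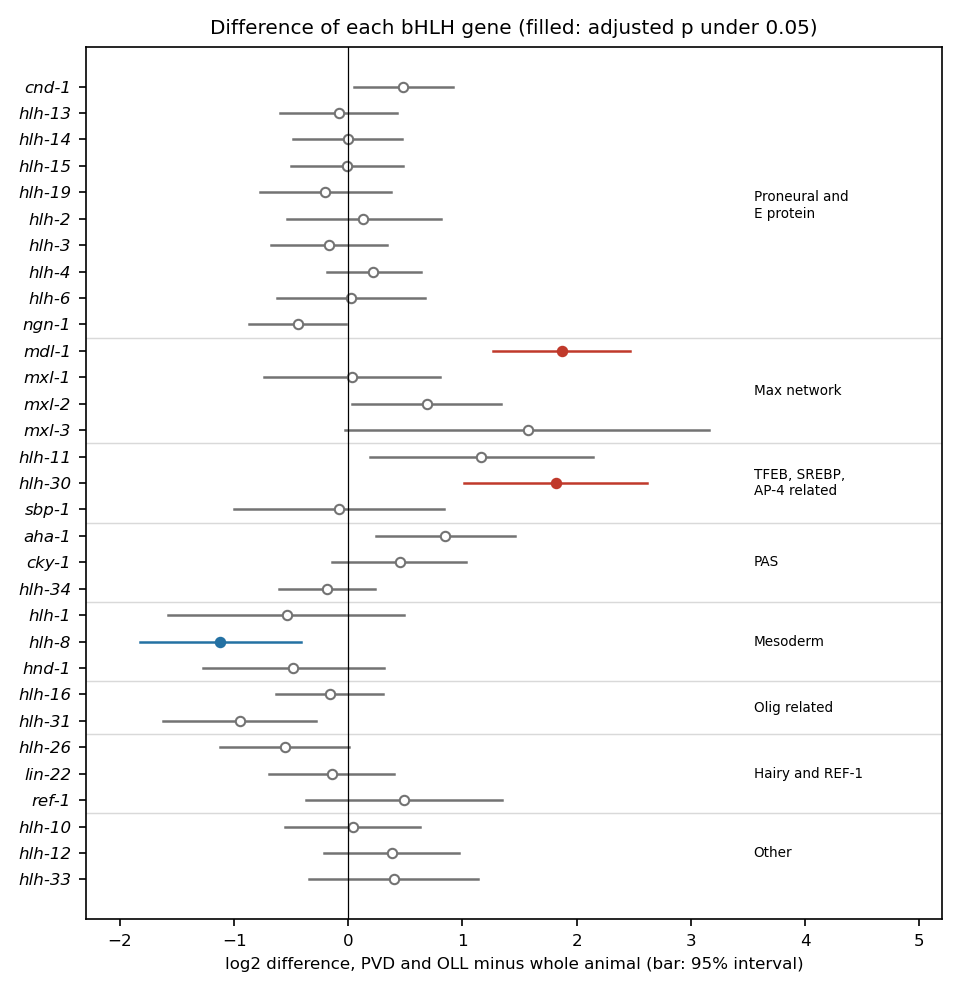
Log2 difference between the groups (horizontal axis, PVD and OLL minus whole animal) for each of the 31 bHLH genes, with 95% intervals from limma and filled points where the adjusted p was under 0.05. mdl-1 (1.87) and hlh-30 (1.82) were called higher and hlh-8 (-1.12) lower.

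Mesodermal bHLH genes had the fall. hlh-8 encodes the worm Twist, which acts in the sex mesoblast lineage and in vulval and enteric muscle. Its signals were 2.44, 3.30 and 2.15 in PVD and OLL and 3.77, 3.74 and 3.73 in the whole animal. The whole animal values were nearly equal and above background, and PVD and OLL replicate 2 came nearest to them. In PVD and OLL, replicate 2 lay above background, replicate 1 was at it to 2 decimals and replicate 3 was below it, so the size of the difference is uncertain. The difference was -1.12 ± 0.30 (adjusted p = 0.0496), beside a median of -0.50 for the no-target controls. Only the fit without PVD and OLL replicate 2 kept this call (-1.45, adjusted p = 0.0388) among the 6 that each drop 1 array. The adjusted p was 0.144 without PVD and OLL replicate 1, 0.0956 without replicate 3, and 0.117, 0.118 and 0.0802 without whole animal replicates 1, 2 and 3. The call was also lost with centring on proteasome genes (adjusted p = 0.0772). Centring on spiked bioB and bioC controls turned the difference to 0.12.

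The other mesodermal genes did not pass the test. hlh-1, the worm MyoD gene of body wall muscle, had 3.51, 4.58 and 4.11 against 3.94, 4.36 and 5.52, and the groups overlapped (difference -0.54, adjusted p = 0.423). hnd-1, related to HAND, had 2.28, 2.26 and 2.40 against 2.31, 2.46 and 3.59, where only whole animal replicate 3 exceeded background. The 3 listed targets of HLH-8 in sex and vulval muscle had differences of 1.29 (egl-15), 0.73 (ceh-24) and -0.56 (arg-1), and limma called 0, with 2 at an unadjusted p under 0.05. Of 8 body wall muscle markers 2 rose and 1 fell, against 12% and 5% of detected genes. All 8 exceeded background on every array, and their median was 0.22. Their part in the value of hlh-8 was not tested.

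Hairy-related and REF-1 family genes were at or near background. lin-22 had 1.95, 2.27 and 2.04 in PVD and OLL and 2.05, 2.62 and 2.02 in the whole animal. ref-1, a Notch target in early embryos, had 2.15, 2.28 and 3.57 against 2.07, 2.22 and 2.24, and only PVD and OLL replicate 3 stood well above the rest. hlh-26 differed by -0.55 (adjusted p = 0.16), below background on all 6 arrays. hlh-25 and hlh-27 share 1 probe set, with a difference of -0.11 (adjusted p = 0.71). hlh-28 and hlh-29 share another, with a difference of -0.52 (adjusted p = 0.11), and neither shared probe set exceeded background on any array. limma called 0 of the 3 genes with their own probe set, and 0 had an unadjusted p under 0.05.

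Olig-related genes and the remaining members were not called. hlh-31, 1 of the genes related to Olig factors of the glial lineage in vertebrates, had 2.93, 3.13 and 2.65 against 3.47, 3.68 and 4.41. The groups did not overlap (-0.95 ± 0.29, adjusted p = 0.0666). Its probe set can match several transcripts, and hlh-17 and hlh-32 have no probe set named for them here. Of 8 glial markers, 2 rose and 0 fell, against 12% and 5% of detected genes, and their median was 0.24. hlh-16 differed by -0.16 below background on all arrays. hlh-12, which acts in distal tip cell migration, had means of 3.11 and 2.73, hlh-33 of 4.66 and 4.26, and hlh-10 of 2.39 and 2.35, and their adjusted p-values were 0.329, 0.406 and 0.93.

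**Figure D4:**
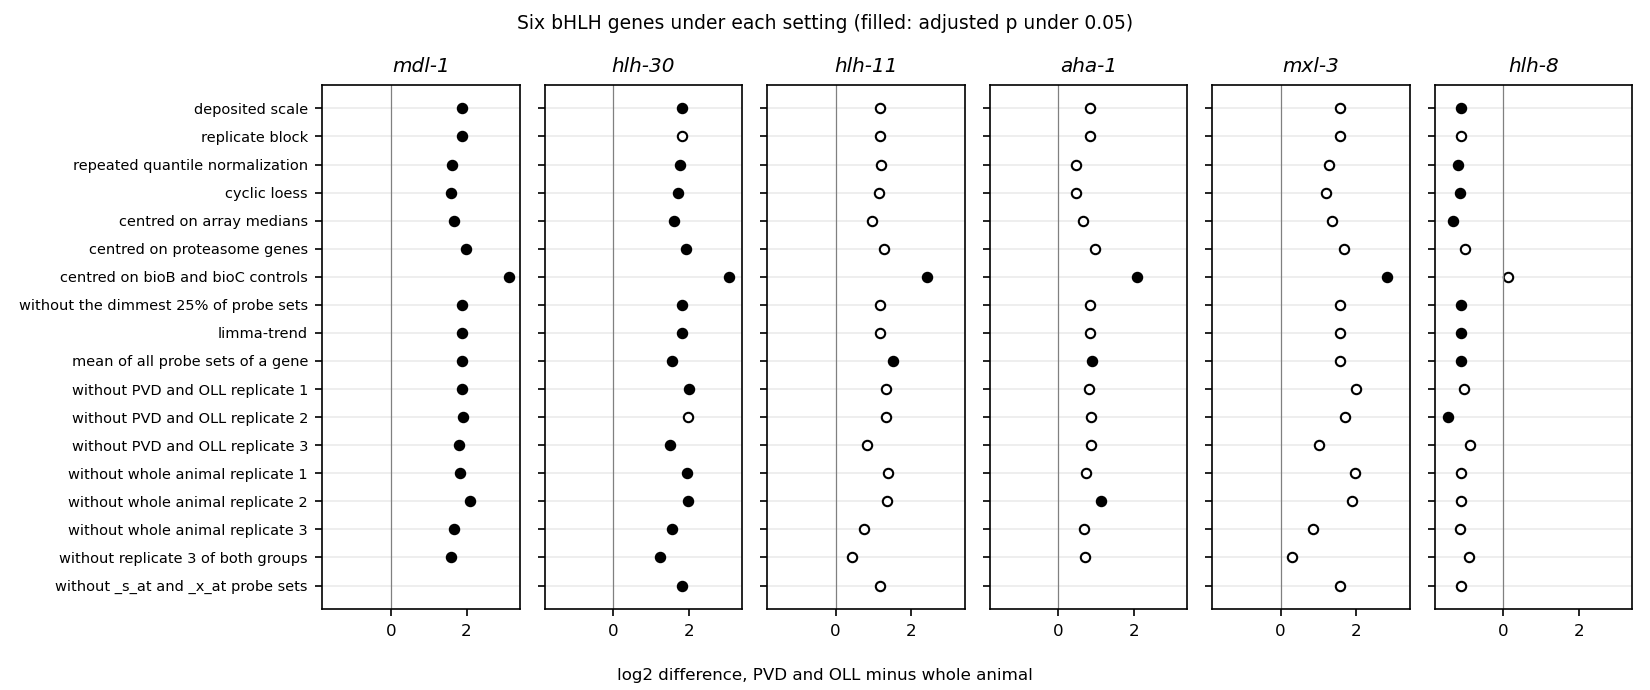
Log2 difference (horizontal axis) of 6 bHLH genes under the deposited scale and each alternative setting, filled where the adjusted p was under 0.05. mdl-1 was called under all 16 alternatives that held its probe set, hlh-30 under 15 of 17 and hlh-8 under 7 of 17.

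Genes that act with these factors were read from lists chosen with earlier results of these data known. Their counts stand beside 12% called higher and 5% lower among the 11532 genes above background on all arrays of at least 1 group. The median difference of those detected genes was 0.18. Of 8 genes on a list of PVD fate factors, which includes lin-32 and ahr-1, 6 rose and 0 fell, with a median log2 difference of 1.67. Those that rose included mec-3, the LIM homeobox gene of PVD branching (2.23 ± 0.31), egl-44, a TEAD factor gene (1.95 ± 0.26), and zag-1, a ZEB-related gene (1.78 ± 0.36, lost in 3 of the 6 fits that each drop 1 array). The other egl-44 probe set differed by 1.15 and was not called (adjusted p = 0.0642). The bHLH member of that list that starts the lineage, lin-32, was at background, as described above, and the PAS member ahr-1 rose.

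Lipid and lysosome genes were called in part, and the 2 calls among 17 autophagy and lysosome genes were near the 12% of detected genes. Of 15 genes of the SBP-1 pathway and lipid synthesis, 4 rose and 1 fell, with a median of 0.40. sams-1, an S-adenosylmethionine synthetase gene, rose by 1.94 ± 0.50 (not called in 5 of the 6 fits that each drop 1 array, up to 0.121, and 1.33 without whole animal replicate 3), pod-2, the acetyl-CoA carboxylase gene, by 1.47 ± 0.19 and lpin-1, the lipin gene, by 1.24 ± 0.22 (lost in 1, adjusted p = 0.0612). The fatty acid elongase gene elo-6 differed by -0.94 ± 0.20 (adjusted p = 0.0221, lost in 3 such runs, up to 0.0979). Of 17 autophagy and lysosome genes listed for HLH-30, 2 rose and 0 fell, with a median of 0.35. These 2 were lmp-1, a lysosomal membrane protein gene (1.37 ± 0.25, lost in 2 such runs, up to 0.068), and atg-18, an autophagy gene (1.16 ± 0.20, lost in 1, up to 0.0565). Among other probe sets, limma called sams-1 at 2.01 (adjusted p = 0.0166), lpin-1 at 1.41 (adjusted p = 0.00878) and atg-18 at 1.84 (adjusted p = 0.00628). It did not call further ones of sams-1 (1.2, adjusted p = 0.142), lpin-1 (0.54, adjusted p = 0.165) and lmp-1 (1.03, adjusted p = 0.0701).

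The remaining lists had few or no calls, and the 2 among 16 Notch pathway genes were near the 12% of detected genes. Of 16 Notch pathway genes, 2 rose and 0 fell, with a median of 0.22: the receptor gene lin-12 (0.96 ± 0.20, not called in 4 of the 6 fits that each drop 1 array, up to 0.0966) and the protease gene sup-17 (0.95 ± 0.25, lost in 5, up to 0.15). Of the other sup-17 probe sets, limma called that at 1.23 (adjusted p = 0.013) and not that at 1.27 (adjusted p = 0.0521). Of 8 measured HIF-1 pathway genes limma called 0, with 1 at an unadjusted p under 0.05. Their median was -0.07. Of 6 pharyngeal gland genes listed for HLH-6 limma called 0, with 0 at an unadjusted p under 0.05. Their median was -0.15.

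**Figure D5:**
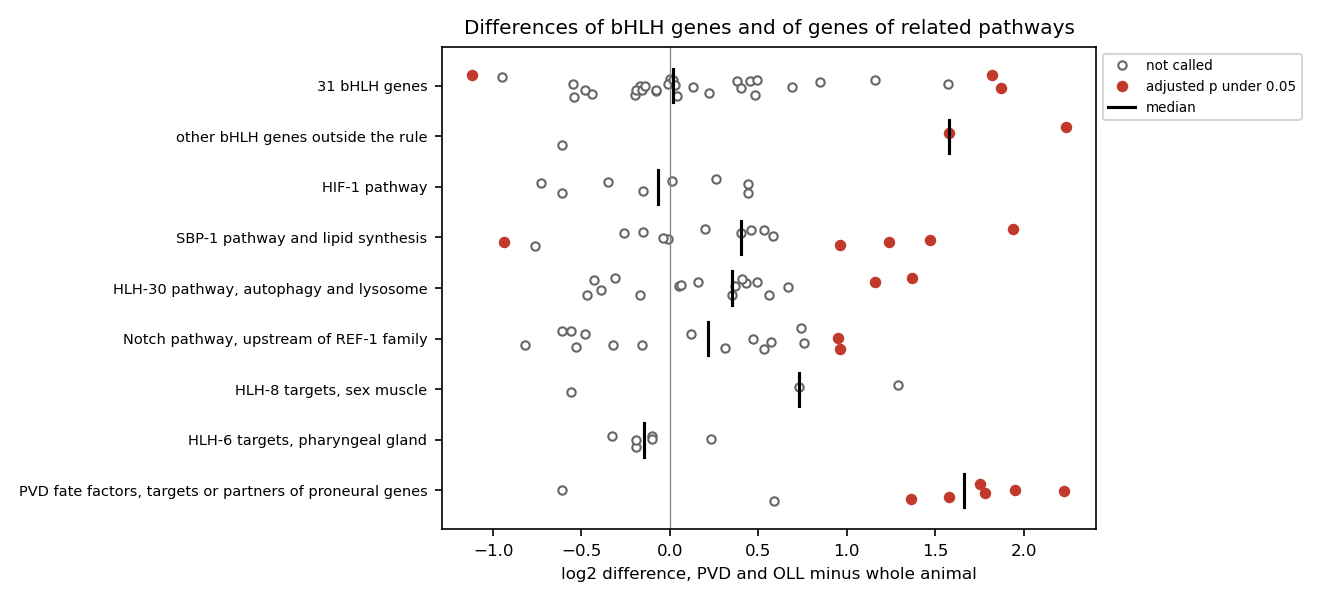
Log2 difference (horizontal axis) of each of the 31 bHLH genes and of each measured gene of 8 related lists, filled where the adjusted p was under 0.05, with the list median as a bar. The lists were chosen with earlier results of these data known. The list of PVD fate factors has a median of 1.67. The 31 bHLH genes have 0.02, and the 14 above background on all arrays of at least 1 group have 0.39.

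Markers of several cell types moved between the groups. Of 11 PVD and OLL markers 8 rose, of 10 pan-neuronal genes 6 rose, and 0 of either fell, against 12% and 5% of detected genes. PVD and OLL markers not called were ser-2, the gene of the tagging promoter (0.72, adjusted p = 0.202), F49H12.4 (0.03, adjusted p = 0.945) and mec-10 (0.78, adjusted p = 0.0587). mec-3 and unc-86 also belong to the list of PVD fate factors. Of 7 hypodermal markers 5 rose and 0 fell, with a median of 1.46, and of 5 pharyngeal markers 2 rose and 0 fell, with a median of 0.62. Of 7 intestinal markers 0 rose and 2 fell, vit-2 (-3.09) and vit-6 (-3.66), though the median of the 7 was 0.21. Of 7 germline markers 0 rose and 1 fell, rme-2 (-2.24), with a median of -0.16. On the PVD and OLL arrays all hypodermal and intestinal markers exceeded background on each array. The summed linear signal of the hypodermal markers ran from 985 to 1520 in PVD and OLL and from 284 to 646 in the whole animal. The part of other tissues in the signals of mdl-1, hlh-30 and hlh-11 was not tested.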

How the data were processed

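Poly(A) RNA of PVD and OLL neurons and total RNA of whole animals were measured on 3 Affymetrix arrays each. The authors deposited 1 value per probe set and array, made with RMA per the submitters' processing notes (no version stated). No label states the log base: the deposited values, from 1.21 to 13.9, are taken as log2. Scanner files were not used here.

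Of 22625 probe sets, 77 controls were left out and 22548 tested. Names came from the array's annotation, updated through a RefSeq table (WBcel235, names only). A single gene was listed for 20766 of them, several for 887 and none for 895, and 20701 names came from RefSeq. The probe set with the highest mean over 6 arrays stood for a gene. limma 3.58.1 (lmFit, eBayes; R 4.3.3) compared the groups, two-sided, with Benjamini-Hochberg adjustment over all tested probe sets. SE is limma's moderated standard error. Background was the 95th percentile of 32 no-target controls, and for a group with no array above it a fold is "at least", against that level. The code was tested on simulated data.

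The members and lists were chosen with earlier results of these data known. Values on each array are given for called genes and a fixed list of well-known members, whether called or not, and other genes by means. mxl-3, hlh-11 and hlh-31 were added after their values were seen. Up to 3 called genes per list are named, with elo-6 added as the single fall. The labels call the neuronal samples biological replicates and only number the reference samples, so a p-value here reflects only array-to-array spread, possibly technical, and the number of arrays limits precision. Homeobox and nuclear hormone receptor counts were added after seeing the data.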

Additional observations from a re-analysis of the deposited data

How the results depend on the processing

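The calls of mdl-1 held under all 16 alternatives with its probe set, those of hlh-30 under 15 of 17 and those of hlh-8 under 7 of 17. Over all named genes and probe sets, 721 of 894 alternative values kept their direction and stayed on their side of the threshold, 90 lost the call, 25 gained it and 58 changed sign. The counts of bHLH genes called were 2 higher and 1 lower. They were 1 and 0 with the replicate number as a block (hlh-30 adjusted p = 0.0598), 2 and 2 with centring on array medians, 2 and 0 with centring on proteasome genes, 20 and 0 after centring by bioB and bioC controls, 1 and 0 if _s_at and _x_at probe sets were dropped (which leaves mdl-1 without one), 4 and 1 with all probe sets of a gene averaged, and 3 and 0 without replicate 3 of both groups. Over all probe sets the counts were 2099 higher and 964 lower, against 1224 and 405 (block), 1192 and 1007 (repeated quantile normalization), 1195 and 1079 (cyclic loess), 1476 and 1952 (array medians), 2629 and 710 (proteasome genes), 12752 and 66 (bioB and bioC controls), 1186 and 600 (without _s_at and _x_at) and 3300 and 1842 (without replicate 3 of both groups). Of 73 measured list genes 15 were called higher and 1 lower, against 10 and 0 (block), 9 and 1 (quantile), 12 and 2 (array medians), 49 and 0 (bioB and bioC controls), 10 and 0 (without _s_at and _x_at), 14 and 2 (limma with an intensity trend) and 17 and 2 (without replicate 3 of both groups). With 1 array left out, the bHLH counts ran from 1 to 3 higher and 0 to 1 lower, the probe set counts from 577 to 2017 and from 208 to 1222, and the list counts from 4 to 14 and from 0 to 1. The lowest counts of higher calls came without PVD and OLL replicate 2.

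Centring on the bioB and bioC controls moved the median of all genes from -0.07 to 1.17 and that of the bHLH genes from 0.02 to 1.27. It turned 17 values from negative to positive. Of these, hlh-8 (0.12) and elo-6 (0.30) were called on the deposited scale and not there, and hlh-13 (1.16), hlh-15 (1.23) and sbp-1 (1.16) were called only there. The others were called in neither: hlh-1 (0.70), hlh-3 (1.07), hlh-16 (1.08), hlh-19 (1.04), hlh-26 (0.69), hlh-31 (0.29), hlh-34 (1.05), hnd-1 (0.76), lin-22 (1.10), ngn-1 (0.80), lin-32 (0.63) and the dimmer hlh-2 probe set (0.91). All other changes of sign were of values called in neither setting. They were hlh-10 (-0.16), hlh-2 (-0.07), hlh-6 (-0.18) and mxl-1 (-0.17) with array medians, hlh-13 (0.03), hlh-15 (0.10) and sbp-1 (0.03) with proteasome genes, hlh-13 (0.12), hlh-15 (0.22), hlh-16 (0.04), hlh-3 (0.04), lin-22 (0.06) and mxl-1 (-0.29) with quantile normalization, and hlh-13 (0.15), hlh-15 (0.26), hlh-16 (0.13), hlh-3 (0.03), hlh-34 (0.15), lin-22 (0.11) and mxl-1 (-0.28) with cyclic loess. Likewise hlh-2 turned to -0.34 without _s_at and _x_at probe sets and to -0.10 with probe sets averaged, and hlh-10 (-0.14), hlh-13 (0.14) and sbp-1 (0.31) turned without replicate 3 of both groups. With 1 array left out, values that changed sign ran from -0.14 to 0.20 (hlh-10), -0.20 to 0.10 (hlh-13), -0.16 to 0.11 (hlh-15), -0.03 to 0.40 (hlh-2), -0.14 to 0.30 (hlh-6), -0.25 to 0.05 (lin-22), -0.19 to 0.40 (mxl-1) and -0.34 to 0.40 (sbp-1). Centring on array medians moved the median of all genes to -0.27 and on proteasome genes to 0.04. Causes were not tested. The same-numbered arrays of the groups did not deviate together (correlations of -0.051, -0.065 and -0.104), and no array correlated best with its own number. No pairing by number was seen, but with 3 arrays per group this check cannot settle whether arrays were paired. For 9 of 31 bHLH genes no array exceeded background, and a difference there was not detectable on these arrays.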
